A study of Mus musculus with 12 samples.

Results

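Ribosome biogenesis and nucleolar genes, 40 in all, were followed through the maturation of mouse basophils in 2 kinds of culture. Members were the rows of a list of 40 symbols whose mean was at least 1 CPM (counts of a gene scaled to a fixed library total, leaving out the row Rn45s) over 12 libraries, and 40 of the 40 passed, out of 31301 gene symbols in the table. Bone marrow of C57BL/6J mice (WT, with no transgene) had been cultured for 7 days with interleukin-3 (IL-3) at 0.3 ng/mL or with thymic stromal lymphopoietin (TSLP), for which the treatment protocol gives 1 µg/mL and another label a larger unit. The study gates bone marrow-derived basophils (BMBAs) as CD200R3+ c-Kit- cells. The resulting BMBAs were sorted into FcεRIαhi CD49blo cells, labelled immature, and FcεRIαlo CD49bhi ones, labelled mature. The immature cells are the pre-basophils of the study. Each stage of each culture was a group of 3 libraries, named here by cytokine, stage and replicate number (TSLP mature 1). These are populations grown and sorted ex vivo, the age of the mice is not given in the labels, and no group without cytokine was among the samples.

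Ribosomes are assembled largely in the nucleolus. RNA polymerase I transcribes a long precursor that holds the RNAs of the small and the large subunit, guide RNAs bound by box C/D and box H/ACA protein complexes direct the methylation of its sugars and the conversion of its uridines, and a series of assembly factors folds, cuts and exports the subunits. Cells that divide need many ribosomes, and the transcription factor MYC is known as an activator of many of these genes.

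Library totals ran from 1720065 to 3685285 counts, and a fit across 10822 genes gave the tests. All 10 basophil marker genes had counts in each group, but so had all 10 neutrophil markers, so this alone does not show identity. Cd200r3, 1 of the 10 basophil markers, encodes a protein by which the cells were gated. The basophil markers summed to 46194 to 50678 CPM in immature and 11801 to 14496 in mature libraries with IL-3. With TSLP they summed to 32780 to 34890 and 9047 to 13780 CPM. Mcpt8 and Prss34 made up most of the sum in immature libraries (19703 and 20523 CPM in IL-3 immature 1). The markers did not move alike. With IL-3, 5 of the 10 passed the test as higher in immature cells (50%) and 4 as lower (40%), against 24.2% and 21.4% of all genes. With TSLP, 4 (40%) and 3 (30%) did, against 14.3% and 10.5%. Itga2, which encodes CD49b, had a mean of 32.9 CPM at the immature and 282 at the mature stage with IL-3, and 102 and 185 with TSLP, higher at the mature stage as in the sort. Fcer1a, which encodes FcεRIα, had 1926 and 1167 CPM with IL-3 (log2 fold change of immature over mature cells 0.72 ± 0.24, adjusted p = 0.0233), and with TSLP it did not pass the test (1574 and 1409 CPM, 0.16 ± 0.24, adjusted p = 0.676), TSLP mature 1 lying above all TSLP immature libraries. TSLP mature 1 stood apart from the other libraries: it differed from the other libraries of its group by a chi-square of 38.3 and 47.0 per degree of freedom, against 2.17 to 11.6 for the other pairs of replicates. The summed level of 10 neutrophil markers ran from 59.8 to 968 CPM within TSLP mature, and the counts of members called are therefore also given without this library. The 3 rows of nuclear ribosomal RNA were Rn45s, Rn18s and Rn28s1. With IL-3 they summed to 20.9% ± 5.4 of the counts in immature and 21.7% ± 2.4 in mature libraries. With TSLP they summed to 36.8% ± 2.9 and 27.8% ± 9.3 (SD, n = 3). Rn45s alone took 10.5% and 10.9% with IL-3 and 18.5% and 14.0% with TSLP, immature first. In IL-3 immature Rn18s and Rn28s1 took 8.08% and 2.30%. The precursor holds both of these RNAs, so the sums may count the same reads more than once. RNA had been captured by its poly(A) tail, so these shares are not levels of ribosomal RNA in the cells.

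Of the 40 members, 35 passed the test as higher in immature than in mature cells with IL-3, where 24.2% of all genes tested did, and 20 with TSLP, where 14.3% did. Among mature cells 13 were called higher and 1 lower with TSLP than with IL-3, against 10.9% and 13% of all genes. Their summed level was 2285, 2055 and 1799.9 CPM in immature and 926, 862 and 859 in mature libraries with IL-3, and 1698, 1679 and 1547 in immature and 1187, 937 and 933 in mature libraries with TSLP. The sums of the immature libraries lay above all those of mature libraries, and all of TSLP mature lay above IL-3 mature. In cells sorted in bulk, fewer cells that express a gene and less of its RNA per cell cannot be told apart. Here and in what follows CPM are scaled by TMM, the trimmed mean of log ratios, a member is called where the adjusted p is under 0.05, and adjusted p-values come from edgeR's quasi-likelihood test with Benjamini-Hochberg adjustment over all 10822 genes.

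**Figure D1:**
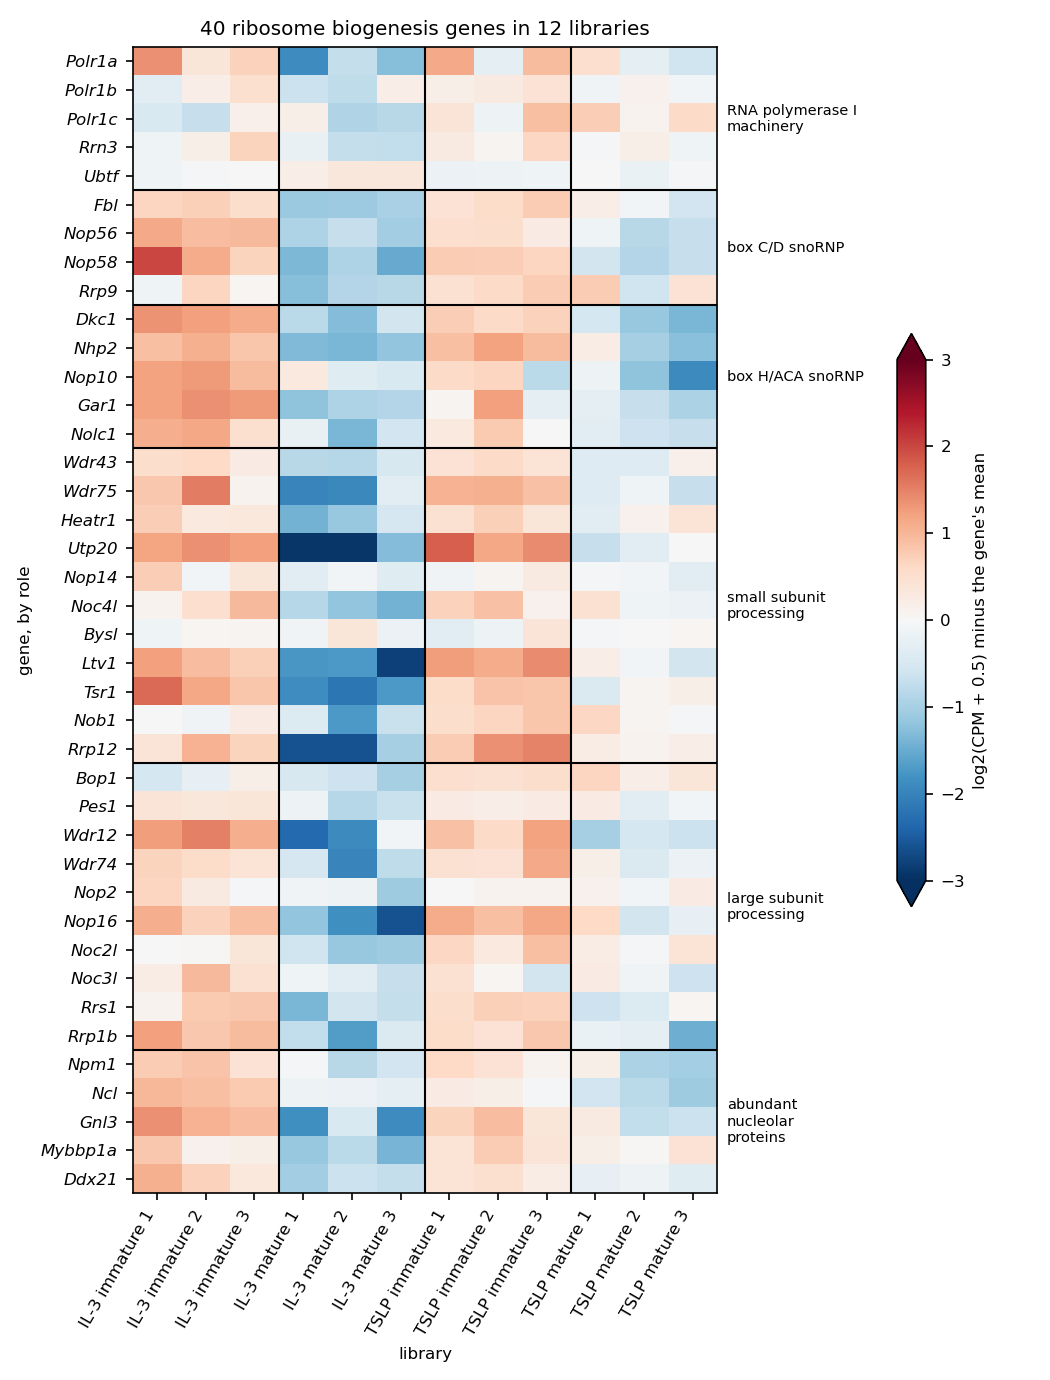
Heatmap of the 40 members (rows, by role) in the 12 libraries (columns, by group), as log2(CPM + 0.5) minus the mean of the gene over the 12 libraries. Most rows are red in the 6 immature libraries and blue in IL-3 mature, with TSLP mature paler than IL-3 mature, whereas Ubtf goes the other way and Bysl hardly varies.

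In IL-3 culture 35 of the 40 members were called higher in immature cells and 0 lower, where 24.2% of all genes tested were called in the direction of immature cells and 21.4% in that of mature cells. In TSLP culture 20 were called higher in immature cells and 0 lower, against 14.3% and 10.5% of all genes. The median log2 fold change of immature over mature cells was 1.52 in IL-3 and 0.82 in TSLP culture for the members, and 0.01 and 0.06 over all genes. The 20 members called in TSLP culture were all called in IL-3 culture too, and 5 were called in neither. Among the called members 30 rose at least 2-fold in IL-3 immature cells and 11 in TSLP immature cells. All 3 immature libraries lay above all 3 mature libraries for 34 of the 35 and for 17 of the 20. These members had been called from the same libraries, and the share over all genes was not counted, so the separation is no further evidence. The list of members was drawn up with results of these data known, and their counts are a description beside those of all genes. Without TSLP mature 1 the calls were 36 in IL-3 culture (35 higher and 1 lower in immature cells) and 21 in TSLP culture. The count in TSLP culture fell to 12 without TSLP immature 1 or TSLP mature 3, and to 13 without TSLP immature 2.

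**Figure D2:**
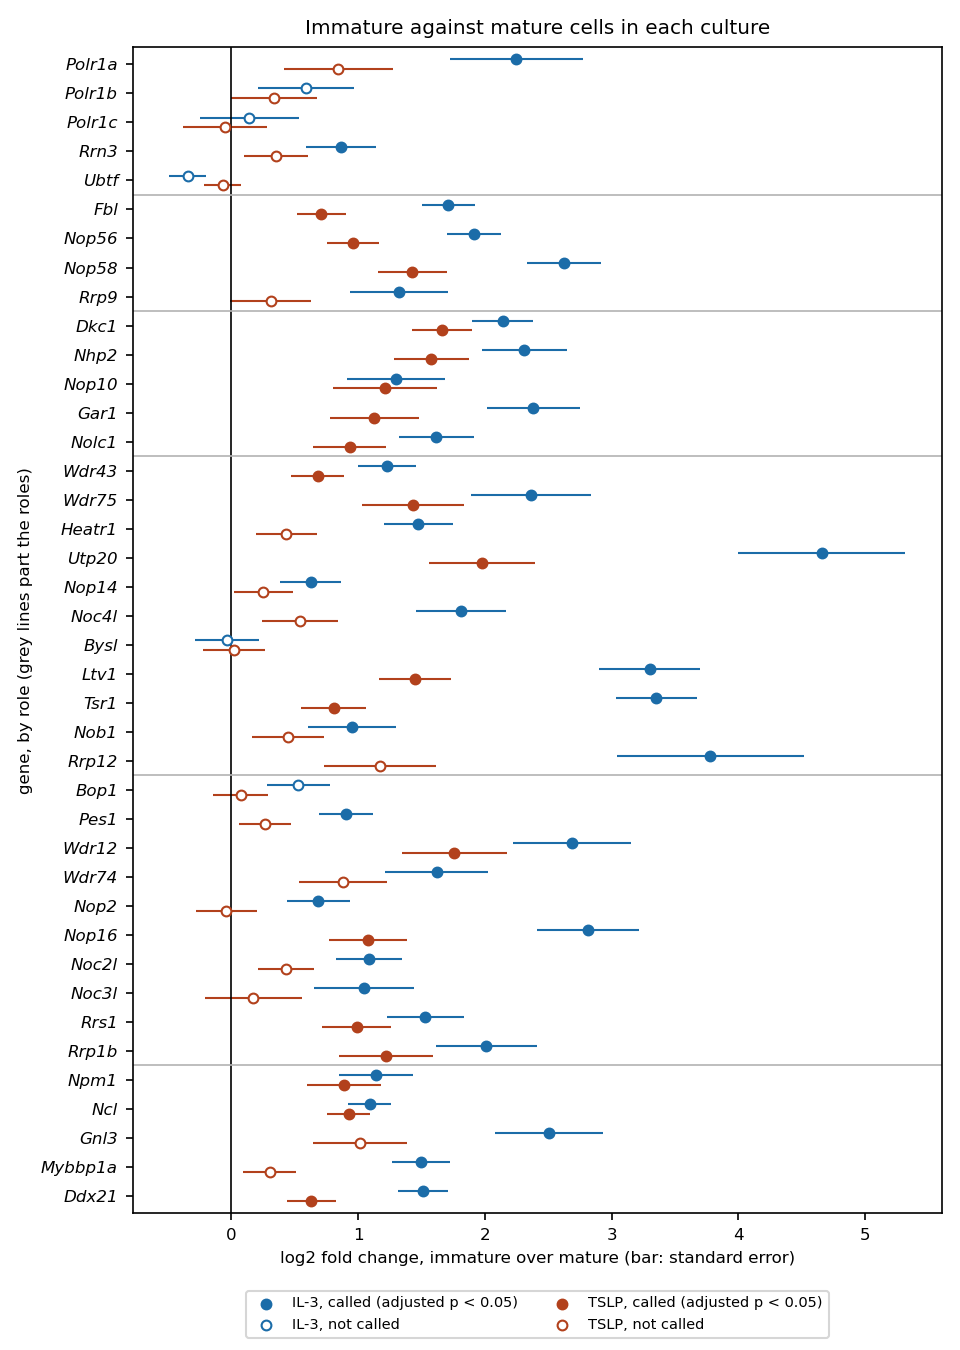
Log2 fold change of immature over mature cells for each member in IL-3 (blue) and TSLP culture (red), with the standard error. Filled points are called; 35 are filled for IL-3 and 20 for TSLP, and the blue point lies to the right of the red one for 38 of the 40 members.

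The promoters of 6 members are shown here because these members carry the comparisons that follow: Utp20, Tsr1 and Ltv1 had large changes in IL-3 culture and between mature cells, Tsr1 and Mybbp1a differed in their maturation effect between the cytokines, Ncl moved with the cytokine in the opposite direction, and Bysl did not pass the test in any comparison. The sequences are those of RefSeq on GRCm38.p6, 250 bases before to 50 bases after the transcription start, and 35 of the 40 members matched an entry. Npm1, Fbl, Bop1, Rrs1 and Rrp12 did not. Capitals mark CACGTG, the palindromic core known as the E-box that MYC and related factors bind. The windows lie at chr10:88826765-88827064 (minus strand) for Utp20, chr11:74897830-74898129 (plus) for Tsr1, chr10:13193088-13193387 (minus) for Ltv1, chr11:72441077-72441376 (plus) for Mybbp1a, chr1:86359406-86359705 (minus) for Ncl and chr17:47611443-47611742 (minus) for Bysl.
Utp20: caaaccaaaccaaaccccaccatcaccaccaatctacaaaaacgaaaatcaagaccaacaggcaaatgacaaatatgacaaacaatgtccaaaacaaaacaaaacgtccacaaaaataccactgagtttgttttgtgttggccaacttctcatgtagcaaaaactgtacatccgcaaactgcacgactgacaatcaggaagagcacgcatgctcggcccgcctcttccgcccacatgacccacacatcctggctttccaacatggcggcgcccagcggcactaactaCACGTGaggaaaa
Tsr1: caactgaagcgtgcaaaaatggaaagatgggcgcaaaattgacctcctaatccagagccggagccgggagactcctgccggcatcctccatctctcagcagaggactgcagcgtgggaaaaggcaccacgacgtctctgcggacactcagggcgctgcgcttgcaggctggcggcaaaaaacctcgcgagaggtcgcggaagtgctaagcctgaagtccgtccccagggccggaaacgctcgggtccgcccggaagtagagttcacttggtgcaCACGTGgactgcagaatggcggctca
Ltv1: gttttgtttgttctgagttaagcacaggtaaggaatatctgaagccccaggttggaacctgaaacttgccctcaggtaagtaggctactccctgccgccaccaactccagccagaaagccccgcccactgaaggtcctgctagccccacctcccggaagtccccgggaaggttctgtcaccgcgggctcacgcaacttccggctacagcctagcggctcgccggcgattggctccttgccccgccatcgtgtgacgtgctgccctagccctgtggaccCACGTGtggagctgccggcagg
Mybbp1a: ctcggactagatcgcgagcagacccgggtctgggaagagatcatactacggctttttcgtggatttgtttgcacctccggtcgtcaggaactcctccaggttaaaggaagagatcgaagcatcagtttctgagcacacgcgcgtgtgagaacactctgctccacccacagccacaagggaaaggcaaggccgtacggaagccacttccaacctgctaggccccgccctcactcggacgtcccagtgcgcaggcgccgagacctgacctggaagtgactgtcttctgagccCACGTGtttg
Ncl: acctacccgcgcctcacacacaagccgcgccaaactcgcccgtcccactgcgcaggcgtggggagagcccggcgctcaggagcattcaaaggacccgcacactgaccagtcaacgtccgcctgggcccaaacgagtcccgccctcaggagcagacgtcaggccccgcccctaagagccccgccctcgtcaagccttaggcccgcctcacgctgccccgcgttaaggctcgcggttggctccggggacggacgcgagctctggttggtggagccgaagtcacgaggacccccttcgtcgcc
Bysl: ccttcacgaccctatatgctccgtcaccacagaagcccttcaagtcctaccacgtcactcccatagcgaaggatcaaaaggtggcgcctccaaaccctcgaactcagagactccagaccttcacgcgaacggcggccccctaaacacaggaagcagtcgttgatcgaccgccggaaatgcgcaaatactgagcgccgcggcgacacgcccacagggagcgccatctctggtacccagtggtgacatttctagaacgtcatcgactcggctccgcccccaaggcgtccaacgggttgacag
CACGTG, which reads the same on both strands, began at base 288 of the 300 in Utp20, 275 in Tsr1, 279 in Ltv1 and 291 in Mybbp1a, each time within the transcribed bases after the start. It was absent from the printed windows of Ncl and Bysl. Counting genes with more than 1 start, 8 of 44 member promoters (18.2%) held it, against 7.15% of all 32851 promoters of the same length. The members with it were Ltv1, Mybbp1a, Nop2, Pes1, Rrn3, Tsr1, Utp20 and Wdr43. Of these, Nop2, Pes1, Rrn3 and Wdr43 were not called between mature cells of the 2 cytokines. Heatr1, Noc4l, Nob1, Rrp9, Nop16 and Noc2l were called higher with TSLP there and lacked CACGTG. The 6 printed members were picked by their results, so their windows do not stand for all members. CCGGAAG or its reverse complement, a core bound by factors of the ETS family, was held by 13 of 44 member promoters (29.5%) against 8.86% of all; the letters of the 2 motifs can share no base. Matches of letters are a description of these windows and were not tested.

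Of the RNA polymerase I machinery, 2 of 5 members were called in IL-3 and 0 in TSLP maturation. Rrn3, the factor that makes the polymerase competent to initiate, had 12.2, 15.2 and 21.6 CPM in the immature and 11.3, 7.93 and 7.76 in the mature libraries of IL-3 culture, and 16.2, 14.0 and 20.6 in the immature and 12.7, 15.2 and 12.03 in the mature libraries of TSLP culture. Its immature libraries lay above the mature ones in IL-3 culture and overlapped them in TSLP culture. The log2 fold change was 0.86 ± 0.28 (SE, adjusted p = 0.0188) with IL-3 and 0.35 ± 0.25 (adjusted p = 0.342) with TSLP. The IL-3 call was lost without IL-3 immature 3, IL-3 mature 2 or IL-3 mature 3, where the adjusted p reached 0.151. Polr1a, the largest subunit of the polymerase, was called in IL-3 culture at a log2 fold change of 2.25 ± 0.52 (adjusted p = 0.00247) and had 0.84 ± 0.43 in TSLP culture (adjusted p = 0.169). Polr1b, the second largest subunit, and Polr1c, a subunit shared with RNA polymerase III, passed in neither, with log2 fold changes of 0.59 and 0.14 in IL-3 and 0.34 and -0.05 in TSLP culture.

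Ubtf encodes UBF, which binds along the ribosomal RNA genes and keeps them open. It had 118, 124 and 128 CPM in immature and 147, 162 and 162 in mature libraries with IL-3, and 114, 116 and 118 in immature and 129.7, 112 and 123 in mature libraries with TSLP. IL-3 mature was the group with its highest values, and these did not overlap with any other group. The log2 fold change of immature over mature cells was -0.35 ± 0.14 with IL-3 (adjusted p = 0.0588) and -0.07 ± 0.14 with TSLP (adjusted p = 0.761), neither of which passed the test. With IL-3 it was called lower in immature cells in 6 of 21 alternatives (adjusted p down to 0.0258), namely DESeq2's Wald test, Rn45s kept, the 3 ribosomal RNA rows left out, a filter of 10 CPM in 3 libraries, and without IL-3 immature 3 or TSLP mature 1. Its profile over the 12 libraries ran against the others: Pearson's r with the mean of the other 39 members, on log2(CPM + 0.5), was -0.79.

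The box C/D proteins form the core of the particles that methylate ribosomal RNA, and 4 of 4 were called in IL-3 and 3 in TSLP maturation. Nop58, a core protein of these particles, had 224, 121 and 88.0 CPM in the immature and 21.4, 28.8 and 19.2 in the mature libraries of IL-3 culture, and 94.4, 92.6 and 86.2 in the immature and 37.4, 30.1 and 34.1 in the mature libraries of TSLP culture. The immature libraries lay above the mature ones in both cultures, and IL-3 immature 1 was well above its 2 replicates. Maturation gave a log2 fold change of 2.62 ± 0.29 (adjusted p = 2.62e-06) with IL-3 and 1.43 ± 0.27 (adjusted p = 0.00131) with TSLP. Fbl encodes fibrillarin, the methyltransferase itself. Its levels were 59.4, 62.1 and 55.2 CPM in immature and 17.3, 17.5 and 19.2 in mature libraries with IL-3, and 51.1, 55.7 and 64.5 in immature and 43.2, 36.0 and 25.4 in mature libraries with TSLP. Here TSLP mature lay between IL-3 mature and both immature groups, overlapping none of them. The log2 fold change of maturation was 1.71 ± 0.21 (adjusted p = 7.22e-06) with IL-3 and 0.71 ± 0.19 (adjusted p = 0.0133) with TSLP, and the latter call was lost without TSLP immature 3 or TSLP mature 3, with an adjusted p of up to 0.0689. Nop56, the partner of Nop58, was called in both (1.91 and 0.96), and Rrp9, which binds the U3 guide RNA, in IL-3 culture at 1.33 (adjusted p = 0.0108) and not in TSLP culture (0.31, adjusted p = 0.526). Without IL-3 immature 2 the call of Rrp9 was lost (adjusted p = 0.0816).

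The box H/ACA proteins carry out pseudouridylation of ribosomal RNA, and 5 of 5 members were called higher in immature cells of both cultures. Dkc1 encodes dyskerin, the pseudouridine synthase. It had 57.6, 53.1 and 48.8 CPM in the immature and 12.5, 8.77 and 15.01 in the mature libraries of IL-3 culture, and 37.5, 33.2 and 36.5 in the immature and 15.4, 9.92 and 8.36 in the mature libraries of TSLP culture. The mature groups overlapped each other and lay below all immature libraries. Log2 fold changes were 2.14 ± 0.24 (adjusted p = 3.04e-06) with IL-3 and 1.66 ± 0.24 (adjusted p = 9.22e-05) with TSLP. Nolc1, the nucleolar phosphoprotein Nopp140 that accompanies these particles, had 50.6, 53.4 and 32.8 CPM in immature and 20.1, 8.77 and 15.5 in mature libraries with IL-3, and 28.8, 40.7 and 23.7 in immature and 18.8, 15.2 and 14.4 in mature libraries with TSLP. Nhp2, Gar1 and Nop10, the other proteins of the core, had log2 fold changes of 2.31, 2.38 and 1.30 in IL-3 and of 1.58, 1.13 and 1.21 in TSLP culture. In TSLP culture Gar1 and Nop10 overlapped between immature and mature libraries, and the calls of Gar1, Nop10 and Nolc1 each depended on single libraries: all 3 were lost without TSLP mature 2 or TSLP mature 3, with adjusted p-values of up to 0.218, 0.16 and 0.134 over all alternatives. Those of Nolc1 and Nop10 were also lost without TSLP immature 1 and those of all 3 without TSLP immature 2, and that of Nop10 with TMM recomputed on uncalled genes. In IL-3 culture the call of Nop10 was lost without IL-3 mature 2 or IL-3 mature 3 (adjusted p of up to 0.0553).

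In IL-3 culture the largest changes of single members were among the factors of the small subunit. Of these factors 10 of 11 were called in IL-3 and 5 in TSLP maturation. By median log2 fold change the box H/ACA group changed more, at 2.14 with IL-3 and 1.21 with TSLP, against 1.81 and 0.68. In TSLP culture Wdr12 and Dkc1, of other roles, came next after Utp20. Utp20, a component of the processome that cuts the small subunit RNA out of its precursor, had 8.15, 9.31 and 8.40 CPM in the immature and 0, 0 and 1.04 in the mature libraries of IL-3 culture, and 12.6, 7.95 and 9.71 in the immature and 1.85, 2.48 and 3.34 in the mature libraries of TSLP culture. That is 62 counts over IL-3 immature and 2 over IL-3 mature libraries, a ratio of 29.6 with a 95% exact interval of 7.87 to 250.2 that covers counting error only. In TSLP culture the groups held 77 and 24 counts, a ratio of 4.05 (2.53 to 6.70), with an adjusted p of 3.23e-05 for IL-3 and 0.00271 for TSLP. Rrp12, an export and maturation factor, had 3.49, 5.86 and 4.40 CPM in immature and 0, 0 and 1.04 in mature libraries with IL-3, and 4.68, 7.49 and 8.16 in immature and 3.09, 2.79 and 3.01 in mature libraries with TSLP. Its ratio of 34 to 2 counts was 16.3 (4.17 to 139.7) with IL-3 (adjusted p = 6.05e-04), and that with TSLP was 2.26 (1.39 to 3.72) and did not pass (adjusted p = 0.0645). Both genes were near the limit of detection in IL-3 mature cells.

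Tsr1, a GTPase-like factor of late small subunit maturation, had 43.6, 30.0 and 23.6 CPM in the immature and 3.22, 2.50 and 3.62 in the mature libraries of IL-3 culture, and 19.5, 23.9 and 23.7 in the immature and 9.57, 13.9 and 14.7 in the mature libraries of TSLP culture. The groups of mature cells did not overlap with each other or with immature cells. Its log2 fold change was 3.35 ± 0.32 with IL-3 (adjusted p = 5.37e-07) and 0.81 ± 0.25 with TSLP (adjusted p = 0.0299), the latter being lost without TSLP immature 2, TSLP immature 3 or TSLP mature 1, with DESeq2 and with Rn45s kept (adjusted p of up to 0.0898). Ltv1, which holds the precursor of the small subunit until late in its maturation, had 16.3, 13.1 and 11.2 CPM in immature and 1.61, 1.67 and 0.518 in mature libraries with IL-3, and 16.6, 14.97 and 18.6 in immature and 7.72, 6.20 and 4.34 in mature libraries with TSLP. It followed the same order as Tsr1 among mature cells, at a log2 fold change of 3.30 ± 0.40 with IL-3 (adjusted p = 6.32e-06) and 1.45 ± 0.29 with TSLP (adjusted p = 0.00162). Exons of Tsr1 overlap those of Srr on the opposite strand. Such an overlap with another gene was found for 17 of the 40 members, among them Dkc1, Heatr1, Pes1, Wdr12 and Wdr43. Whether reads were counted by strand is not given in the sources used here.

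Heatr1, a processome component that also acts in transcription by RNA polymerase I, had 39.6, 29.0 and 29.6 CPM in the immature and 8.46, 10.4 and 16.6 in the mature libraries of IL-3 culture, and 32.8, 38.8 and 30.7 in the immature and 18.5, 25.7 and 31.4 in the mature libraries of TSLP culture. It was called with IL-3 (log2 fold change 1.48 ± 0.27, adjusted p = 3.79e-04) and not with TSLP (0.43 ± 0.24, adjusted p = 0.213). Wdr43, of the same particle, had 26.8, 28.3 and 21.99 CPM in immature and 10.1, 10.02 and 12.9 in mature libraries with IL-3, and 25.2, 27.6 and 24.5 in immature and 13.9, 13.9 and 20.4 in mature libraries with TSLP. It was called in both, at 1.23 ± 0.23 (adjusted p = 4.22e-04) and 0.68 ± 0.21 (adjusted p = 0.0277); the TSLP call was lost without TSLP immature 1, TSLP immature 2, TSLP mature 1 or TSLP mature 2, with Rn45s kept, with DESeq2's Wald test and with no filter on low counts (adjusted p of up to 0.0947). Of the others, Wdr75, a further processome component, was called in both (2.36 and 1.43), and lost its TSLP call without TSLP immature 1 (adjusted p = 0.0517). Noc4l, Nob1, the nuclease that makes the final cut at the end of the small subunit RNA, and Nop14 were called with IL-3 alone, at 1.81, 0.95 and 0.62. The calls of Nob1 and Nop14 were lost in 7 and 14 of 21 alternatives, with an adjusted p of up to 0.21 and 0.251. Both were lost without IL-3 immature 1, IL-3 immature 3, IL-3 mature 2 or IL-3 mature 3, Nob1 also without IL-3 immature 2, and Nop14 without IL-3 mature 1, TSLP immature 1, TSLP immature 2 or TSLP mature 2. Bysl, bystin, had log2 fold changes of -0.04 ± 0.25 and 0.02 ± 0.24, and its exons overlap those of Ccnd3 on the opposite strand.

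**Figure D3:**
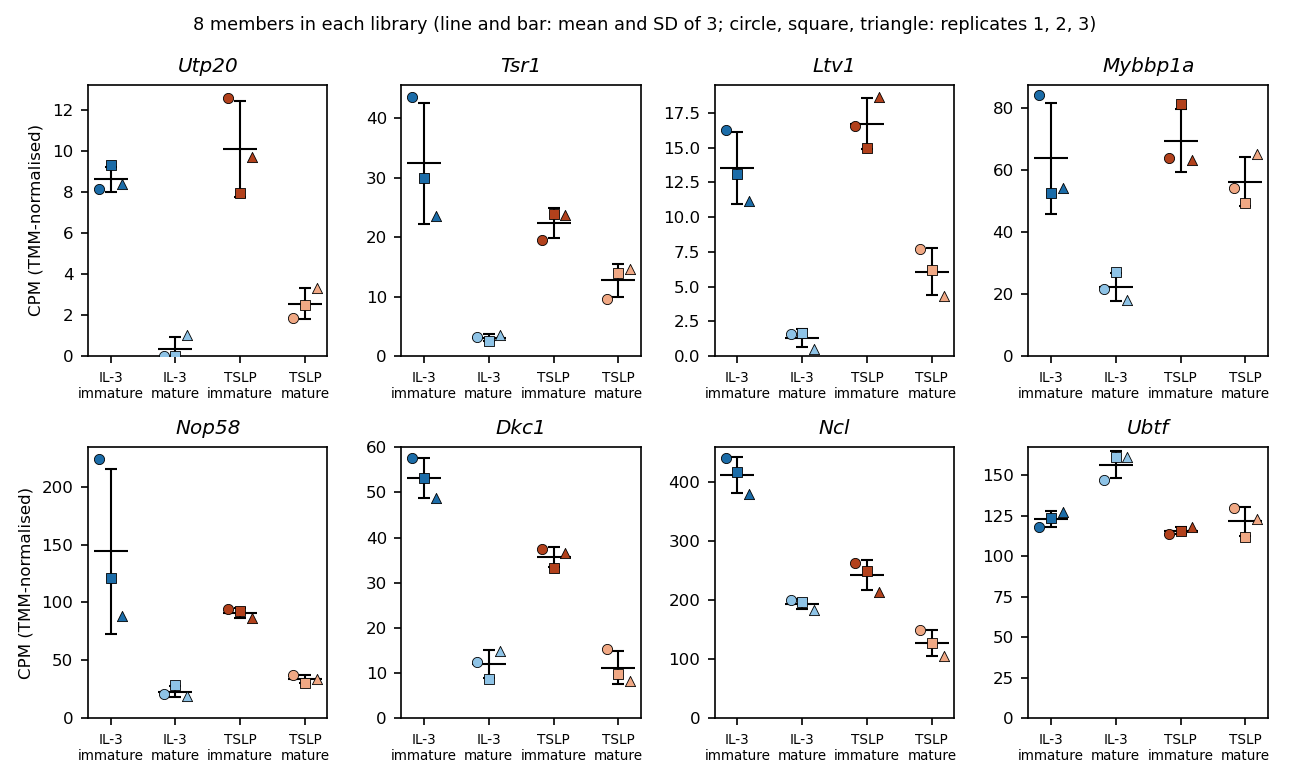
TMM-normalised CPM of 8 members in each library, with the mean and SD of each group of 3. Utp20, Tsr1 and Ltv1 sit lowest in IL-3 mature with TSLP mature between it and the immature groups. Mybbp1a is also lowest in IL-3 mature, but its TSLP mature libraries overlap both immature groups. Nop58 and Dkc1 are low in both mature groups, Ncl is lowest in TSLP mature, and Ubtf is highest in IL-3 mature.

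Of the large subunit factors, 9 of 10 were called in IL-3 and 4 in TSLP maturation. Pes1, Bop1 and Wdr12 encode the 3 proteins of the PeBoW complex, which acts in the processing of the large subunit RNA, and they did not move alike. Wdr12 had 15.1, 18.3 and 13.6 CPM in the immature and 0.806, 1.25 and 5.69 in the mature libraries of IL-3 culture, and 11.5, 9.36 and 14.8 in the immature and 2.78, 4.03 and 3.68 in the mature libraries of TSLP culture, and was called in both cultures at 2.69 ± 0.46 (adjusted p = 2.09e-04) and 1.76 ± 0.42 (adjusted p = 0.00602). Pes1 had 40.7, 39.3 and 39.98 CPM in immature and 27.8, 16.7 and 19.2 in mature libraries with IL-3, and 36.7, 35.6 and 36.5 in immature and 36.8, 24.8 and 29.1 in mature libraries with TSLP. It was called with IL-3 (0.91 ± 0.21, adjusted p = 0.00260) and not with TSLP (0.26 ± 0.20, adjusted p = 0.375). Bop1 was called in neither, at 0.53 ± 0.25 and 0.07 ± 0.22 (adjusted p = 0.0977 and 0.840). The differences among the 3 were not tested.

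Nop2, a methyltransferase of the large subunit RNA, had 41.9, 32.4 and 25.6 CPM in the immature and 24.6, 23.8 and 12.4 in the mature libraries of IL-3 culture, and 26.3, 28.5 and 28.7 in the immature and 29.0, 25.1 and 31.7 in the mature libraries of TSLP culture. In IL-3 culture its log2 fold change was 0.68 ± 0.25 (adjusted p = 0.0340), a call lost without IL-3 immature 1, IL-3 immature 2, IL-3 mature 2 or IL-3 mature 3, with Rn45s kept and with all 3 ribosomal RNA rows left out (adjusted p of up to 0.192). In TSLP culture its groups overlapped, and the log2 fold change was -0.04 ± 0.24 (adjusted p = 0.926). Nop16, Rrs1 and Rrp1b were called in both cultures, at 2.81, 1.53 and 2.01 with IL-3 and 1.08, 0.99 and 1.22 with TSLP; of these, Nop16 and Rrp1b lost their TSLP calls without TSLP immature 1 or TSLP mature 3, Nop16 also without TSLP mature 2 and Rrp1b without TSLP immature 3 (adjusted p of up to 0.0749 and 0.0911). Wdr74, Noc2l and Noc3l were called with IL-3 alone, at 1.62, 1.08 and 1.05. Noc2l and Noc3l are partners in the export of the large subunit precursor. The call of Noc3l was lost in 9 of the 20 alternatives that tested it, among them DESeq2's Wald test and leaving out IL-3 immature 2, IL-3 immature 3 or any IL-3 mature library, with an adjusted p of up to 0.216.

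The 5 abundant nucleolar proteins were all called in IL-3 maturation, and 3 of them in TSLP maturation. Ncl encodes nucleolin, which binds nascent ribosomal RNA. It had 441, 417 and 381 CPM in immature and 200.3, 197 and 184 in mature libraries with IL-3, and 264, 250.3 and 214 in immature and 149, 127 and 106 in mature libraries with TSLP. The 4 groups did not overlap, and TSLP was the lower cytokine at both stages. Maturation gave log2 fold changes of 1.09 ± 0.17 with IL-3 (adjusted p = 7.97e-05) and 0.93 ± 0.17 with TSLP (adjusted p = 8.94e-04). Npm1, the chaperone nucleophosmin, had 292, 314 and 232 CPM in the immature and 167, 96.4 and 116 in the mature libraries of IL-3 culture, and 262, 234 and 186 in the immature and 195, 89.0 and 85.2 in the mature libraries of TSLP culture. TSLP mature 1 overlapped TSLP immature, and the TSLP call of Npm1 (0.89 ± 0.29, adjusted p = 0.0359) was lost without TSLP immature 1, TSLP immature 2, TSLP mature 2 or TSLP mature 3 and with TMM recomputed on uncalled genes (adjusted p of up to 0.135). Of the 50-base stretches of Npm1 transcripts 24.3% are found in transcripts of other genes too, the highest share of any member, followed by 20.4% for Pes1, 19% for Fbl and 18.6% for Nop56, so the reads of these 4 may be split between copies.

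Mybbp1a, a nucleolar protein that restrains transcription by RNA polymerase I, had 84.4, 52.7 and 54.4 CPM in immature and 21.8, 27.1 and 18.1 in mature libraries with IL-3, and 64.1, 81.4 and 63.3 in immature and 54.4, 49.6 and 65.2 in mature libraries with TSLP. IL-3 mature was its only group that did not overlap with the rest. The log2 fold change was 1.49 ± 0.23 (adjusted p = 7.35e-05) with IL-3 and 0.30 ± 0.21 (adjusted p = 0.323) with TSLP. Ddx21, an RNA helicase, was called in both (1.51 and 0.63), the TSLP call being lost without TSLP immature 1, TSLP immature 2 or TSLP mature 3 and with Rn45s kept (adjusted p of up to 0.0963). Gnl3, nucleostemin, was called with IL-3 at 2.50 ± 0.43 and had 1.02 ± 0.37 with TSLP (adjusted p = 0.0573). Exons of Mybbp1a overlap those of Spns2 on the opposite strand.

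Between mature cells of the 2 cytokines, 13 of the 40 members were called higher with TSLP and 1 lower, where 10.9% of all genes were called higher with TSLP and 13% higher with IL-3. The median log2 fold change of TSLP over IL-3 was 0.56 for the members and 0.05 over all genes. By role, 7 of 11 small subunit factors were called higher (Heatr1, Utp20, Noc4l, Ltv1, Tsr1, Nob1 and Rrp12), 3 of 10 large subunit factors (Bop1, Nop16 and Noc2l), 2 of 4 box C/D proteins (Fbl and Rrp9), 1 of 5 nucleolar proteins (Mybbp1a), and 0 of 5 in both the box H/ACA and the RNA polymerase I group. The ratio of counts was 10.1 (95% exact interval 2.54 to 87.3) for Rrp12 and 8.64 (2.15 to 75.4) for Utp20, each against 2 counts over the IL-3 mature libraries, at adjusted p-values of 0.00966 and 0.0139. The call of Utp20 was lost without IL-3 mature 1 or IL-3 mature 2 (adjusted p of up to 0.0647). Ltv1 was higher by a log2 fold change of 2.18 ± 0.43 (adjusted p = 0.00279), Tsr1 by 2.02 ± 0.34 (adjusted p = 0.00111), Nop16 by 1.92 ± 0.42 (adjusted p = 0.00529) and Mybbp1a by 1.33 ± 0.23 (adjusted p = 0.00131). For the members called in this direction all 3 TSLP mature libraries lay above all 3 IL-3 mature libraries. The calls came from the same libraries, and the share of all genes so separated was not counted. Rrp9, Noc4l and Nob1 each lost the call without TSLP mature 1, Rrp9 also without IL-3 mature 1, Noc4l and Nob1 without IL-3 mature 2, and Noc4l without IL-3 mature 3, at adjusted p-values of up to 0.0664, 0.0647 and 0.111. Ncl was lower with TSLP by -0.60 ± 0.17 on the log2 scale (adjusted p = 0.0185), and this call was lost without IL-3 mature 1 or TSLP mature 3 and with no filter on low counts (adjusted p of up to 0.0856). Without TSLP mature 1, 10 members were called higher with TSLP and 3 lower.

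In the dot plot of TSLP over IL-3 the mature points spread to the right of zero and the immature points sit around it. Among mature cells the box H/ACA group had the median closest to zero of the roles (0.12), with members on both sides. Dkc1 had -0.09 ± 0.26, Nolc1 0.12 ± 0.31, Gar1 0.43 ± 0.41, Nhp2 0.82 ± 0.36 and Nop10 -0.80 ± 0.42, with adjusted p-values from 0.111 to 0.838. Nop10 was called lower with TSLP without TSLP mature 1 and with no filter on low counts (adjusted p down to 0.0166). Nhp2 was called higher without TSLP mature 3 (adjusted p = 0.0367). The difference between the box H/ACA group and the small subunit factors was not tested. Of the 10 members called higher in TSLP mature cells that matched a promoter, 4 held CACGTG (Ltv1, Mybbp1a, Tsr1 and Utp20), and of the other 25 matched members 4 did. Counted by promoter and not by gene, 7.15% of all 32851 promoters held it. The split rests on calls from these same libraries, and its difference was not tested.

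**Figure D4:**
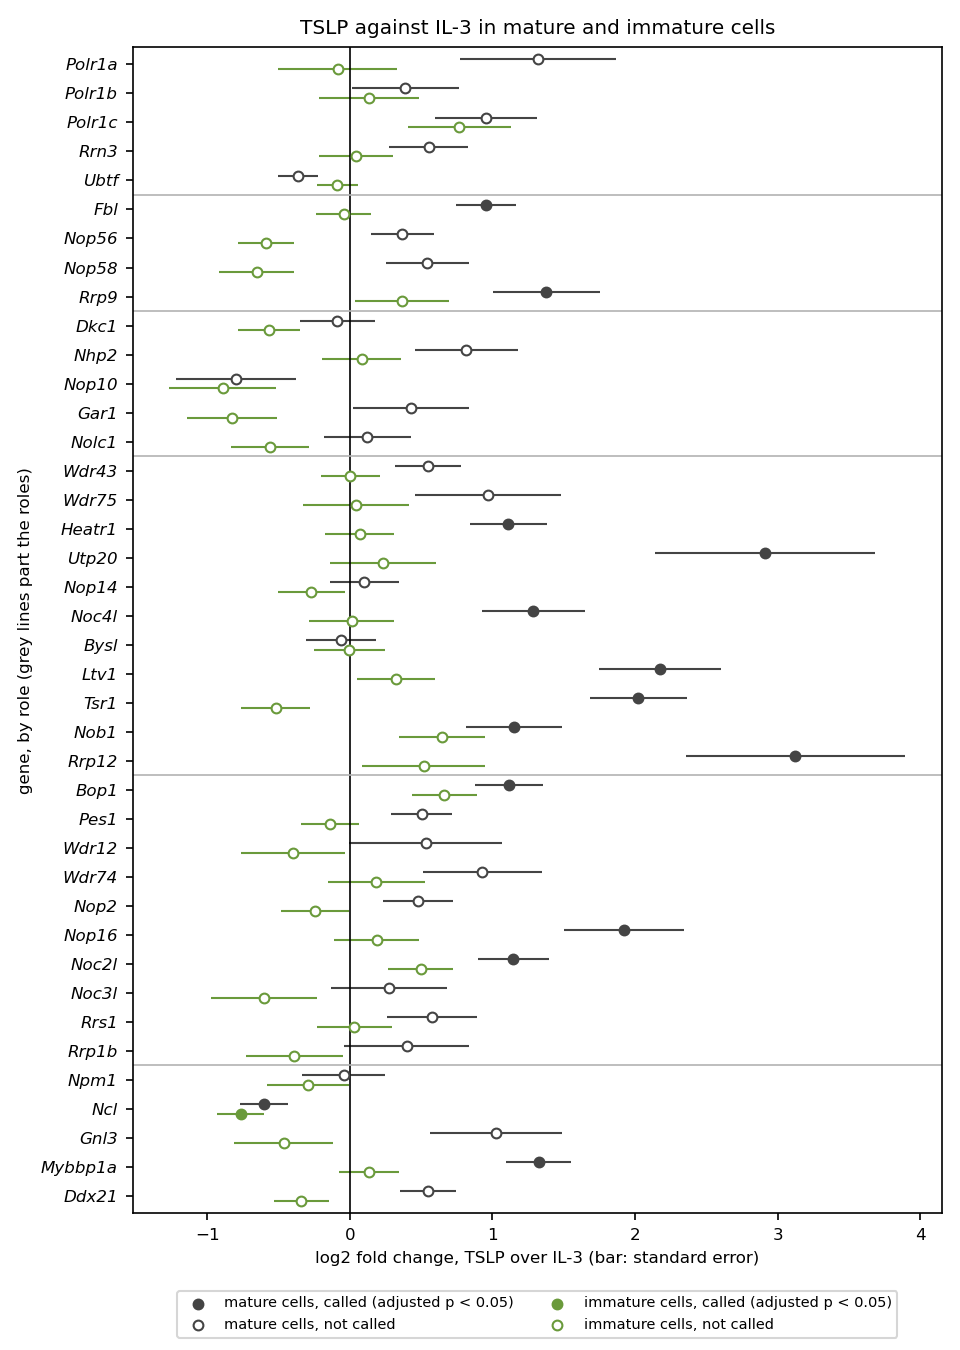
Log2 fold change of TSLP over IL-3 for each member in mature (dark) and immature cells (green), with the standard error. Filled points are called: 14 for mature cells, of which Ncl alone lies below zero, and Ncl alone for immature cells.

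Between immature cells, 0 members were called higher with TSLP and 1 lower, where 6.75% of all genes were called higher and 6.11% lower. The median log2 fold change was -0.02 for the members, with a range of -0.14 to 0.01 over the alternatives fitted with edgeR, and 0.01 over all genes. Of the 40 members, 11 had an unadjusted p under 0.05, where 3093 of 10822 genes (28.6%) did. Ncl was the called member, with a log2 fold change of -0.77 ± 0.17 (adjusted p = 0.00803). This call was lost without TSLP immature 3 (adjusted p = 0.0517), which left 0 calls, and without TSLP mature 1, which enters the shared estimate of spread, 5 members were called, 1 higher and 4 lower with TSLP. Nop56 and Bop1 came nearest among the others, with -0.59 ± 0.20 (adjusted p = 0.0592) and 0.66 ± 0.23 (adjusted p = 0.0677). DESeq2's Wald test also called 1 member in this comparison.

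The test of whether maturation differed between the cytokines (the interaction of stage and cytokine) called 2 members, Tsr1 and Mybbp1a, both with a smaller difference between immature and mature cells in TSLP culture. Over all genes 2.24% were called with a more positive and 1.89% with a less positive difference in TSLP culture. The interaction, TSLP minus IL-3 on the log2 scale, was -2.55 ± 0.42 for Tsr1 (adjusted p = 0.00293) and -1.19 ± 0.31 for Mybbp1a (adjusted p = 0.0433). For Tsr1 IL-3 immature had the highest and IL-3 mature the lowest mean, and for Mybbp1a IL-3 mature lay apart from the other groups. The call of Tsr1 held in 21 of 21 alternatives, whereas that of Mybbp1a was lost in 11 of 21, of which 10 left out a library (any IL-3 library, any TSLP immature library, or TSLP mature 3; adjusted p of up to 0.111). Ltv1 (-1.85, adjusted p = 0.0547), Fbl (-1.001, adjusted p = 0.0581) and Nop16 (-1.73, adjusted p = 0.0752) followed. The fitted interaction was below zero for 38 of the 40 members, all but Ubtf and Bysl, at a median of -0.77 against 0.03 over all genes, and 15 members had an unadjusted p under 0.05, where 2004 of 10822 genes (18.5%) did. The members share the same 12 libraries and are not replicates of this difference.

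Members mostly varied together over the 12 libraries. On log2(CPM + 0.5), Pearson's r of a member with the mean of the other members was above 0.8 for 25 of 40, and it was highest for Fbl (0.98), Nhp2 (0.96) and Ltv1 (0.94). It was lowest for Ubtf (-0.79), Bysl (-0.12) and Polr1c (0.24). Among the 780 pairs the median r was 0.69, and 76 pairs had a negative r. These r values describe 12 libraries of 4 groups that share depth and scaling, and they follow the differences between groups. With the group means taken out, r was 0.68 for Fbl, 0.89 for Nhp2, 0.09 for Ltv1 and -0.20 for Tsr1.

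The other genes of the pathway were taken from a list of 137, drawn up from what the genes are known to do. Of 135 tested, 72 were called higher and 4 lower in IL-3 immature than in IL-3 mature cells (median log2 fold change 0.67). In TSLP culture 29 were called higher and 1 lower in immature cells (median 0.37). The shares with IL-3 were 53.3% higher and 2.96% lower, where 24.2% and 21.4% of all genes were called. With TSLP they were 21.5% and 0.741%, against 14.3% and 10.5%. The 4 lower ones, named after their values were seen, were Ddx24, Sbds, Zfp622 and Polr2e, a subunit shared by all RNA polymerases and also the 1 lower in TSLP culture. By class, in IL-3 maturation the calls higher and lower were 3 and 1 of 15 for other RNA polymerase I genes, 6 and 0 of 8 for guide RNA particle genes, 24 and 0 of 46 for the small subunit, 29 and 3 of 49 for the large subunit and 10 and 0 of 17 for the exosome and trimming enzymes. Between mature cells 24 were called higher and 15 lower with TSLP (median 0.18), between immature cells 0 and 11 (median -0.14). Between mature cells that was 17.8% and 11.1%, against 10.9% and 13% of all genes. Between immature cells it was 0% and 8.15%, against 6.75% and 6.11%. The shares called lower were thus near those of all genes. The interaction called Polr1e and Sdad1, named after their values were seen, with a smaller difference in TSLP culture (-2.22 and -1.44). These are 1.48% of the list, where 1.89% of all genes were called with a less positive difference.

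Ribosomal protein genes encode the proteins that the biogenesis factors assemble, and 52 of 84 tested were called lower with TSLP between mature cells. Of these 84 cytosolic ribosomal protein genes, 13 were called higher and 1 lower (Rplp1) in IL-3 immature cells (median log2 fold change 0.29). In TSLP immature cells 7 were called higher and 0 lower (median 0.78). The shares called higher, 15.5% with IL-3 and 8.33% with TSLP, were below the 24.2% and 14.3% of all genes. Those called lower were 1.19% and 0%, against 21.4% and 10.5%. Between mature cells 3 were called higher (Rpl3, Rps2 and Rpsa) and 52 lower with TSLP, at a median of -1.56. Between immature cells 0 were called higher and 13 lower, at -0.96. Between mature cells that was 3.57% and 61.9%, against 10.9% and 13% of all genes. Between immature cells it was 0% and 15.5%, against 6.75% and 6.11%. The named ones were chosen after their values were seen. These genes have many near-identical copies in the genome, and the treatment of reads that match more than 1 transcript is not given in the sources used here.

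Myc, the activator named above, had a mean of 16.9 ± 6.7 CPM in the immature and 7.37 ± 1.6 in the mature cells of IL-3 culture, and 35.2 ± 1.9 in the immature and 25.2 ± 7.1 in the mature cells of TSLP culture (SD, n = 3). It was called higher with TSLP in mature cells (log2 fold change 1.75, adjusted p = 0.00144) and in immature cells (1.02, adjusted p = 0.0229), and higher in immature cells with IL-3 (1.21, adjusted p = 0.00598) but not with TSLP (0.48, adjusted p = 0.193). Of 9 genes of the Myc network tested, 2 were called higher (Myc and Mxd3) and 5 lower (Max, Mnt, Mxd1, Mxd4 and Mxi1) in IL-3 immature cells. Max is the partner of MYC, and the others are known as its antagonists, which also pair with MAX. In TSLP culture Mxd3 was called higher and Max, Mxd1 and Mxd4 lower. With IL-3 22.2% of the network were called higher and 55.6% lower, against 24.2% and 21.4% of all genes. With TSLP 11.1% and 33.3% were, against 14.3% and 10.5%. Of 18 cell cycle genes, 18 were called higher in immature cells with IL-3 (median 5.55) and 18 with TSLP (median 3.32). The shares of all genes were 24.2% and 14.3%. Between mature cells 13 (72.2%) were called higher with TSLP and 0 lower, against 10.9% and 13% of all genes. The interaction called 12 (66.7%), all with a smaller difference in TSLP culture, against 1.89%. Between immature cells 0 were called higher and 3 (16.7%) lower with TSLP, against 6.75% and 6.11% of all genes. Their median there was -0.44, where that of the members was -0.02. Mki67, the gene of the proliferation marker Ki-67, had a mean of 802 CPM at the immature and 9.30 at the mature stage with IL-3, and of 504 and 24.9 with TSLP. The part of cell division in the members' levels was not tested.

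Markers of other cells moved between the groups as well. The summed level of 8 monocyte, macrophage and dendritic cell markers ran from 23.6 to 43.1 CPM in immature and 263 to 351 in mature libraries with IL-3, and 112 to 138 in immature and 386 to 651 in mature libraries with TSLP. The 8 B lineage markers summed to 7.24 to 8.80 CPM in the immature and 2.42 to 3.34 in the mature libraries of IL-3 culture, and 41.6 to 47.8 in the immature and 22.01 to 201 in the mature libraries of TSLP culture, with 3 of the 8 at 0 in both IL-3 groups. The 7 early progenitor markers ran from 3080 to 3450 and from 162 to 233 CPM in the IL-3 groups and from 1517 to 1610.4 and from 87.4 to 206 CPM in the TSLP groups, immature first. Neutrophil markers summed to 199 to 236 CPM at the immature and 362 to 504 at the mature stage with IL-3, and 126 to 199 at the immature stage with TSLP. The 8 mast cell markers summed to 3333 to 3902 CPM at the immature and 1509.5 to 2096 at the mature stage with IL-3, and 1827 to 2018 and 714 to 987 with TSLP. Nearly all of this was Cpa3, the mast cell carboxypeptidase, which was called higher in immature cells of both cultures (log2 fold changes of 1.12 and 1.23, adjusted p = 2.26e-04 and 2.54e-04) and lower with TSLP in mature and immature cells (-1.05 and -0.94, adjusted p = 0.00208 and 0.00577). Kit, the receptor that marks mast cells, was at most 1.75 CPM. As the study gates BMBAs as c-Kit- cells, this low level is no separate sign of identity. The number of the 8 mast cell markers at 0 was 3 at the immature and 2 at the mature stage with IL-3, and 3 and 5 with TSLP. The part of these cells in the members' levels was not tested.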

How the data were processed

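Bulk RNA sequencing was analysed from 12 libraries of sorted bone marrow-derived basophils. Per the methods of the study, RNA was purified on a small-input column, captured by its poly(A) tail, amplified as cDNA and sequenced on an Ion Proton instrument; reads were trimmed with Cutadapt and mapped with Bowtie2 on the reference RNA of GRCm38, whereas the submitters' processing notes name mm10 and GRCm39. The authors deposited raw counts per gene symbol, which were used unchanged. The treatment of strand, of molecular identifiers and of reads that match more than 1 transcript is not given in the sources used here. The table held 1 unnamed row equal to the sum of the others (50% of each column), which was left out.

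Groups were taken from the sample titles, and nothing in the labels says whether immature and mature cells of one number came from the same culture. Rn45s was left out. Genes were kept with filterByExpr of edgeR 4.0.16 in R 4.3.3 (minimum count 10, minimum total 15), which left 10822 genes holding 99.4% to 99.6% of the remaining counts. Counts were scaled by TMM, and 1 mean per group was fitted over the 12 libraries with the quasi-likelihood test, with a common biological coefficient of variation of 20.5%, Benjamini-Hochberg adjustment and a threshold of 0.05. The package TCC, which the study used, was not run. The script was tested on simulated counts. Library totals of 1720065 to 3685285 counts limit the precision of members with few counts, whose intervals are exact and cover counting error only.

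The members and lists were chosen with earlier results of these data known. Values in every library are given for the 2 members of each role with the highest mean CPM and the 3 called members with the largest fold change in each direction of each comparison, and other members are named by role or because they were not called. Alternatives were DESeq2 1.42.0 (its size factors in edgeR, and its Wald test), TMM recomputed on uncalled genes, library totals alone, Rn45s kept, Rn45s, Rn18s and Rn28s1 left out (added after the table was seen), other filters, a replicate block and leaving out each library. Promoters and coordinates are RefSeq's on GRCm38.p6, and shared stretches and overlapping exons were read from GENCODE transcripts.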

Additional observations from a re-analysis of the deposited data

Results flagged for a closer look

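The difference between immature and mature cells differed between the cytokines for 2 members by edgeR's quasi-likelihood test of the interaction. For Tsr1 the difference was smaller in TSLP than in IL-3 culture by -2.55 on the log2 scale (adjusted p = 0.00293), with all 3 immature libraries above all 3 mature ones in both cultures. For Mybbp1a it was smaller by -1.19 (adjusted p = 0.0433), with immature libraries above mature ones in IL-3 culture and overlapping them in TSLP culture.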

How the results depend on the processing

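Under the 21 alternatives 28 of the 35 calls in IL-3 maturation, 9 of 20 in TSLP maturation, 9 of 14 between mature cells, 0 of 1 between immature cells and 1 of 2 in the interaction (Tsr1) held in each alternative that tested the member, and no called member changed sign. The filter of 10 CPM in 3 libraries did not test Polr1b, Utp20, Rrp12, Wdr74 and Noc3l, so those 5 had 20 alternatives. Leaving out 1 library gave 29 to 36 calls in IL-3 maturation, 12 to 21 in TSLP maturation (12 without TSLP immature 1 or TSLP mature 3, 13 without TSLP immature 2), 12 to 15 between mature cells, 0 to 5 between immature cells (0 without TSLP immature 3, 2 without TSLP immature 2, 3 without IL-3 immature 3, 5 without TSLP mature 1) and 1 to 3 in the interaction (1 without IL-3 immature 1 or 2, IL-3 mature 1 or 2, or TSLP immature 1 or 3). Between immature cells there were 3 calls, all lower with TSLP, with library totals alone, with no filter on low counts or with a replicate block, and 2 with a filter of 10 CPM in 3 libraries. The interaction gave 7 calls with library totals alone, 5 with DESeq2's Wald test, 4 with no filter and 1 with the 3 ribosomal RNA rows left out. DESeq2 called 34 members in IL-3 maturation, 1 of them lower. With library totals alone the median of all genes moved to 0.17 in IL-3 maturation, 0.14 and -0.11 between mature and immature cells and -0.18 in the interaction. The fitted change of Nop2 in TSLP maturation, not called, ran from -0.13 to 0.041 when single libraries were left out, with 0.0027 without TSLP immature 1 and 0.041 without TSLP mature 3.

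Over the 5 scalings tried, calls between immature cells reached 17 from 11 for other pathway genes and 26 from 13 for ribosomal protein genes, and interaction calls of other pathway genes 9 from 2. The medians of these lists kept their sign. Deviations of libraries with the same number correlated at -0.08 to 0.39, not above 0.1 for every pair, so the numbers were not taken as pairs; 9 of 12 correlations were best with the own number (replicates 1 and 3 in 4 of 4 comparisons, replicate 2 between immature cells alone), a hint from the data and not from the design. The replicate block gave 34, 21, 16, 3 and 3 calls in the 5 comparisons. Depth limits Utp20 and Rrp12, with 2 counts each over the IL-3 mature libraries. The causes of these changes were not tested.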
